A study of Mus musculus with 8 samples.

Results

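The comparison asks what an injection of the chemokine CCL3 does to the olfactory mucosa of wild-type mice. It sets 2 arrays of C57BL/6 mice injected with CCL3 against 2 arrays of C57BL/6 mice injected with carrier, which are 4 of the 8 arrays of the series. The arrays were chosen by their sample titles. Each was made from total RNA of the olfactory mucosa, which lines part of the nose and contains olfactory neurons, supporting cells and glands. The labels describe the whole series as a response to bilateral bulbectomy, the removal of both olfactory bulbs, so the carrier group had this operation as well and no array comes from intact mice. The remaining 4 arrays came from mice labelled Ccl3-/-, which received the same injections. Dose, route, time after the injection, age and the number of mice behind an array were not stated in the labels used here. The labels do not tie the replicates to different mice. The p-values therefore measure the spread between arrays alone, and that spread may be technical.

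CCL3, also called MIP-1a, is a small secreted chemokine that draws monocytes, macrophages and other leukocytes through receptors that include CCR1. When the olfactory bulb is removed, the olfactory neurons lose the cells they project to and die, and macrophages enter the epithelium and clear the remains. Basal cells of the epithelium divide and replace the lost neurons through neuronal precursors. Sustentacular cells support the epithelium and are rich in enzymes that oxidise and conjugate inhaled compounds, and glands below it secrete odorant-binding proteins and mucus.

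The 8 arrays held 12488 probe sets, and 8150 of them, standing for 6181 named genes, passed a filter that asked for an intensity above 362.7 on at least 2 arrays. The median intensity per array was 581.4 to 660.3. Carrier replicate 1 stood apart. Over the probe sets tested, its correlation with the other 7 arrays was 0.881 to 0.909, whereas each other array reached 0.947 or more with at least 1 array. The root mean square log2 difference between the 2 carrier arrays was 0.707, larger than between any carrier and any CCL3 array (0.479 to 0.662) and between the 2 CCL3 arrays (0.485). The 3' to 5' intensity ratio of the Gapdh control, which rises when RNA is degraded, was 2.59 on carrier replicate 1 and 0.755 to 1.31 on the other 7 arrays, while the same ratio of the actin control, 1.58, was the lowest of the 8 (1.61 to 2.17 on the others). The results below are therefore given by array, and the differences that turn on that array are given again without carrier replicate 1. The comparison then rests on 1 carrier array, which is assumed to vary like the arrays of the other groups.

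The label of the tissue was borne out by its marker genes. Omp, which encodes the olfactory marker protein of mature olfactory neurons, had intensities of 4251 and 12949 on carrier replicates 1 and 2 and of 12512 and 14771 on CCL3 replicates 1 and 2. Obp1a, an odorant-binding protein of nasal glands that was chosen after its values were seen, was among the bright genes on all 4 arrays, at 38330.3, 43235, 49526 and 40807 in the same order. This order, carrier 1 and 2 and then CCL3 1 and 2, is kept for every set of array values. Omp was dimmer on carrier replicate 1 than on the other 3 arrays, and Obp1a was not set apart on it. In RNA from whole mucosa, fewer cells of a type and less RNA per cell cannot be told apart.

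No probe set differed between CCL3 and carrier at an adjusted p of 0.05. The lowest adjusted p was 0.376 (limma, Benjamini-Hochberg over 8150 probe sets), and 350 probe sets, or 4.29%, had an unadjusted p under 0.05. Of these, 161 (1.98%) were higher and 189 (2.32%) lower after CCL3. This split turned with the scaling, to 265 higher and 130 lower when the arrays were scaled to one median and to 186 higher and 137 lower under cyclic loess. The difference, CCL3 minus carrier on the scale log2(intensity + 102.3), was above 0 for 48.2% of probe sets (46.0% without carrier replicate 1), and had a median of -0.02 and a median size of 0.241, which is smaller than its median standard error of 0.311. The 2 CCL3 arrays lay above both carrier arrays for 12.0% of probe sets and below both for 18.1%. Without carrier replicate 1 no probe set passed either (lowest adjusted p 0.342), with 2.70% higher and 3.29% lower at an unadjusted p under 0.05. The fits with and without that array share the other 7 arrays. The difference kept its sign in 70.8% of probe sets, and 152 of the 350 at an unadjusted p under 0.05 were still under it. Without carrier replicate 2, which leaves carrier replicate 1 alone in its group, 73 probe sets (0.896%) passed, among them those of the gland genes Lcn3, Lcn4 and Dmbt1 described below. No member of the gene lists below passed with both carrier arrays.

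**Figure D1:**
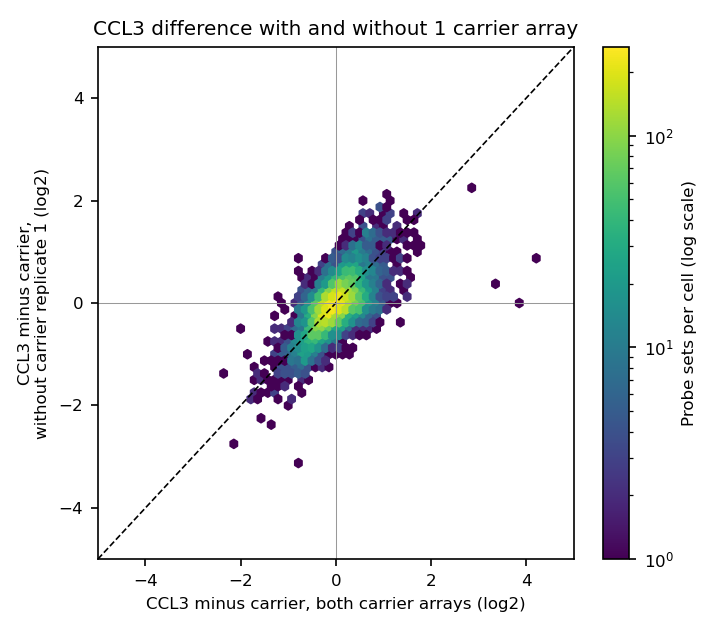
CCL3 minus carrier in the wild type (log2) for each of the 8150 probe sets tested, with both carrier arrays (horizontal axis) and without carrier replicate 1 (vertical axis); shading gives the number of probe sets per cell on a log scale, and the dashed line marks equal values. The points scatter widely around the line, and the sign is the same for 70.8% of probe sets.

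The gene for the injected chemokine itself was dim in the wild type. Ccl3 had intensities of 332 and 159 after carrier and 223 and 386 after CCL3, and the groups overlapped (0.24 ± 0.35, difference ± SE on the log2 scale, as for all differences below). The array reads the mouse transcript and not the injected protein. On the 4 arrays labelled Ccl3-/- the same probe set read 727 to 812, above every wild-type array, so it went against the genotype labels there; where the deletion lies is not stated, and a probe set outside it checks nothing. Of 23 chemokine and chemokine receptor genes, 22 had a probe set and 12 passed the filter. The receptor gene Ccr1 did not pass, at 199.8, 236, 299.5 and 224, nor did Ccl4, a close relative of Ccl3, at 127, 61.7, 48.1 and 92.4. Of the 12 tested, 5 were higher and 7 lower, with 0 under an unadjusted p of 0.05 in either direction (all probe sets 4.29%, and 5.99% without carrier replicate 1), and in 2 both CCL3 arrays lay below both carrier arrays (all probe sets 18.1%). The median difference was -0.15. The lowest p belonged to Ccl6, a chemokine of myeloid cells, which read 534 and 668 after carrier and 338 and 467 after CCL3 (-0.48 ± 0.32). Its CCL3 arrays lay below both carrier arrays, as those of Cx3cl1, the ligand of the microglial receptor CX3CR1, did (-0.41 ± 0.28). The brightest was Ccl9, a ligand of CCR1, at 8532, 3911, 13239 and 4416; its replicates differed more than its groups (0.40 ± 0.59).

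Macrophage genes, the readout named in the title of the series, had no common direction after CCL3. Of 33 macrophage and microglia markers on the array 26 were tested, of which 15 were higher and 11 lower (all probe sets 48.2% higher), with a median difference of 0.07 against -0.02 over all probe sets. Without carrier replicate 1 the split turned to 11 higher and 15 lower (median -0.07). Cd68, a lysosomal membrane protein of macrophages, read 1094 and 2359 after carrier and 2241 and 2896 after CCL3. Carrier replicate 1 was the lowest of these arrays and carrier replicate 2 lay between the CCL3 arrays, so the difference of 0.63 ± 0.34 was 0.11 without carrier replicate 1. Ctsd, the lysosomal protease cathepsin D, was also lowest on carrier replicate 1, at 11216, 21003, 24235 and 24022, with both CCL3 arrays above carrier replicate 2 as well (0.65 ± 0.33, and 0.20 without carrier replicate 1). Adgre1, the gene of the F4/80 surface antigen, was dim and overlapped between the groups at 260.5, 165, 393 and 110.5 (0.06 ± 0.56).

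Further macrophage genes went both ways. The 3 chains of the complement recognition protein C1q, which macrophages make, did not share a direction, with C1qa at 0.40 ± 0.41, C1qb at 0.62 ± 0.46 and C1qc at -0.40 ± 0.23. Without carrier replicate 1 C1qa was -0.33 and C1qb -0.21; these were chosen after their values were seen. Csf1r, the receptor for the macrophage growth factor CSF1, read 1879, 1688, 2137 and 1772 by its brighter probe set, a difference of 0.12 ± 0.27, and -0.66 ± 0.37 by a dimmer one. C1qc was lower on both CCL3 arrays, at 8108, 6816, 5539 and 5716. Spi1, the myeloid transcription factor PU.1, was also lower on both, at 911, 627, 392 and 393 (-0.80 ± 0.29, unadjusted p 0.02, adjusted p 0.911 in limma). It was the 1 of 26 macrophage genes under an unadjusted p of 0.05, a share near that of all probe sets (4.29%), and without carrier replicate 1 its difference was -0.56 (unadjusted p 0.107). The defining markers Itgam, the CD11b integrin chain, and Ptprc, the CD45 antigen of all leukocytes, stayed under the filter on all 4 arrays, at 45.3, 126, 26.4 and 53.1 for Itgam and at 128, 168, 160.4 and 139.8 for Ptprc. Not tested were 7 markers on the array, so a difference limited to them would be missed.

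**Figure D2:**
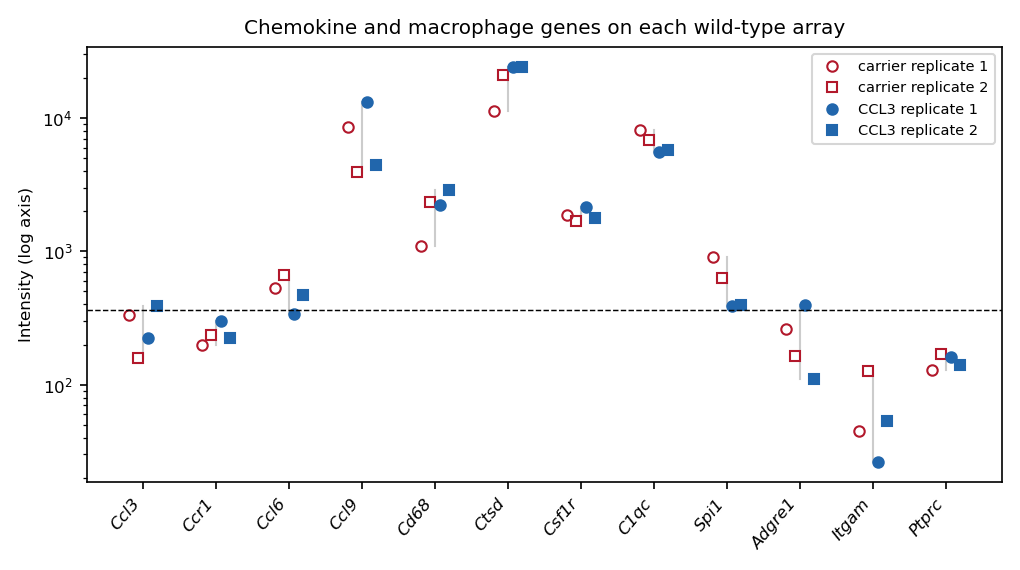
Intensity (log axis) on each of the 4 wild-type arrays for Ccl3, Ccr1, Ccl6, Ccl9 and macrophage genes; open symbols are carrier arrays, filled symbols CCL3 arrays, and the dashed line marks the filter value of 362.7. Symbols of both groups interleave for most genes, and C1qc and Spi1 are lower on both CCL3 arrays.

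Several other leukocyte lists changed sign with carrier replicate 1. Neutrophil markers split 6 to 6 (median -0.08, and 0.04 without carrier replicate 1). S100a8, an abundant product of neutrophils, read 6505 and 1348 after carrier and 2217 and 2077 after CCL3. Its partner S100a9 read 2851, 322, 2277 and 1113, so the CCL3 arrays of both genes lay between the 2 carrier arrays. Of 21 T, B and NK cell markers on the array 7 were tested. Of these, 4 were higher and 3 lower, and the median moved from 0.08 to -0.30 without that array. The B cell genes went both ways. Ms4a1, which encodes CD20, and Cd79a, a chain of the B cell receptor, had differences of -0.52 ± 0.28 and -0.37 ± 0.36. Ms4a1 was lower on both CCL3 arrays at 924, 1144, 716 and 658. Blk was at -0.22 ± 0.32, whereas Jchain was at 0.41 ± 0.40 and Ighm at 0.08 ± 0.47. Another probe set of Ighm had a difference below 0.

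MHC class II genes, which present antigen to T cells, pointed in opposite directions by which carrier array they were set against. Of 8 tested genes 6 were higher (median 0.35), but 1 was when carrier replicate 1 was left out (median -0.30). Cd74, the invariant chain that guides class II molecules, read 2417 and 6941 after carrier and 5677 and 5424 after CCL3, and H2-Aa, a class II alpha chain, read 997, 4218, 2972 and 3209. Carrier replicate 1 was the lowest array for both, and both CCL3 arrays were below carrier replicate 2. The class II beta chains behaved otherwise. H2-Eb1 read 3845, 3576, 2275 and 2367 (-0.65 ± 0.25, unadjusted p 0.0245, adjusted p 0.911), and H2-Ab1 read 1735, 1649, 1173 and 1222 (-0.47 ± 0.24), each lower on both CCL3 arrays than on both carrier arrays.

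Among interferon response genes 10 of 15 were lower and 5 higher (all probe sets 48.2% higher). The list median was -0.12, and it was -0.29 without carrier replicate 1 and 0.03 without carrier replicate 2. Its sign thus turned on the carrier array left out. Of the 15 genes, 4 were lower on both CCL3 arrays (all probe sets 18.1%). Iigp1, an interferon-induced GTPase, had the smallest p of them, at 554, 567, 245 and 207 (-1.01 ± 0.32, unadjusted p 0.00975). Leukocyte adhesion and trafficking genes were lower for 11 of 14 (median -0.21, -0.17 without carrier replicate 1), and 4 were lower on both CCL3 arrays (all probe sets 18.1%). Mmp3, a matrix protease, read 1016, 338, 104 and 219 (-1.45 ± 0.54). Selp, the endothelial selectin on which leukocytes roll, read 694, 108, 53.8 and 87.2 (-1.25 ± 0.60). Carrier replicate 1 was high for both, and without it their differences were -0.77 and -0.29. Itgb2, the beta chain of the leukocyte integrins, was instead highest on carrier replicate 2, at 344, 769, 285 and 266 (-0.72 ± 0.38).

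The median of the plasma protein and complement genes was below 0 with either carrier array, and their members went both ways. Of 14 complement and acute phase genes tested 10 were lower, with a median difference of -0.37 with both carrier arrays, -0.28 without carrier replicate 1 and -0.55 without carrier replicate 2. In 6 of them both CCL3 arrays lay below both carrier arrays, a pattern that 18.1% of all probe sets showed. Alb, which encodes serum albumin, read 1046 and 1301 after carrier and 223 and 315 after CCL3 (-1.79 ± 0.34, a 3.45-fold difference, unadjusted p 0.000383, adjusted p 0.78). This fold and those below include the constant added to each intensity before logs were taken. They are therefore smaller than ratios of the intensities themselves. Hpx, the haem-binding plasma protein hemopexin, read 375, 885, 137 and 256 (-1.23 ± 0.44). Apoa1, the main protein of high-density lipoprotein, is not a member of this list and was named for the wide gap between its groups. It read 469.6, 444, 89.4 and 104 (-1.49 ± 0.46), with CCL3 values near the constant added to each intensity. All 3 were lower on both CCL3 arrays, with a clear gap for Alb. For Apoa1 the gap was the reason for its choice, so it adds nothing to the result of the list. C1ra, a protease of the first complement component, was lower as well (-0.78 ± 0.25).

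Itih2 had the opposite direction, and Saa3 varied widely between replicates. Itih2, a heavy chain of the inter-alpha-trypsin inhibitors that bind hyaluronan, read 278 and 218 after carrier and 809.9 and 975 after CCL3. It was higher on both CCL3 arrays, by 1.51 ± 0.28 or 2.84-fold, and by 1.63 without carrier replicate 1 (unadjusted p 0.00029, adjusted p 0.78). Saa3, an acute phase protein of inflamed tissue that was chosen after its values were seen, read 3563, 342, 31.9 and 638, so that each group spanned more than the distance between them (-2.02 ± 0.97). On the arrays labelled Ccl3-/- Saa3 read 3242 and 4743 after carrier and 74.8 and 334 after CCL3.

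The detoxifying enzymes of the supporting cells were mostly higher after CCL3, with either carrier array. Of 30 sustentacular and detoxification genes tested 21 were higher after CCL3 (all probe sets 48.2%), and 25 were without carrier replicate 1 (all probe sets 46.0%). The median difference was 0.20, 0.20 without carrier replicate 1 and 0.28 without carrier replicate 2, against medians near 0 over all probe sets (-0.02 and -0.03 for the former pair). Both CCL3 arrays lay above both carrier arrays in 9 of the 30 and below both in 1, where all probe sets gave 12.0% and 18.1%. Cyp2f2, a cytochrome P450 of airway and nasal epithelium, read 13645, 38293, 40541 and 45846. The CCL3 arrays were highest, but carrier replicate 2 lay close below them, so the difference of 0.91 ± 0.39 was 0.17 without carrier replicate 1. Adh1, an alcohol dehydrogenase that also oxidises retinol, read 10197, 18964, 20032 and 29422 (0.80 ± 0.31, and 0.35 without that array). Cyp2b19, a dim P450 gene, was higher on both CCL3 arrays at 134, 240.0, 372 and 567 (0.99 ± 0.46). Its relative Cyp2b10 was the 1 gene of the list lower on both, at 3904, 3146, 1728 and 3138 (-0.57 ± 0.33). The brightest, the glutathione transferase Gstm5, did not separate the groups (-0.07 ± 0.21).

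**Figure D3:**
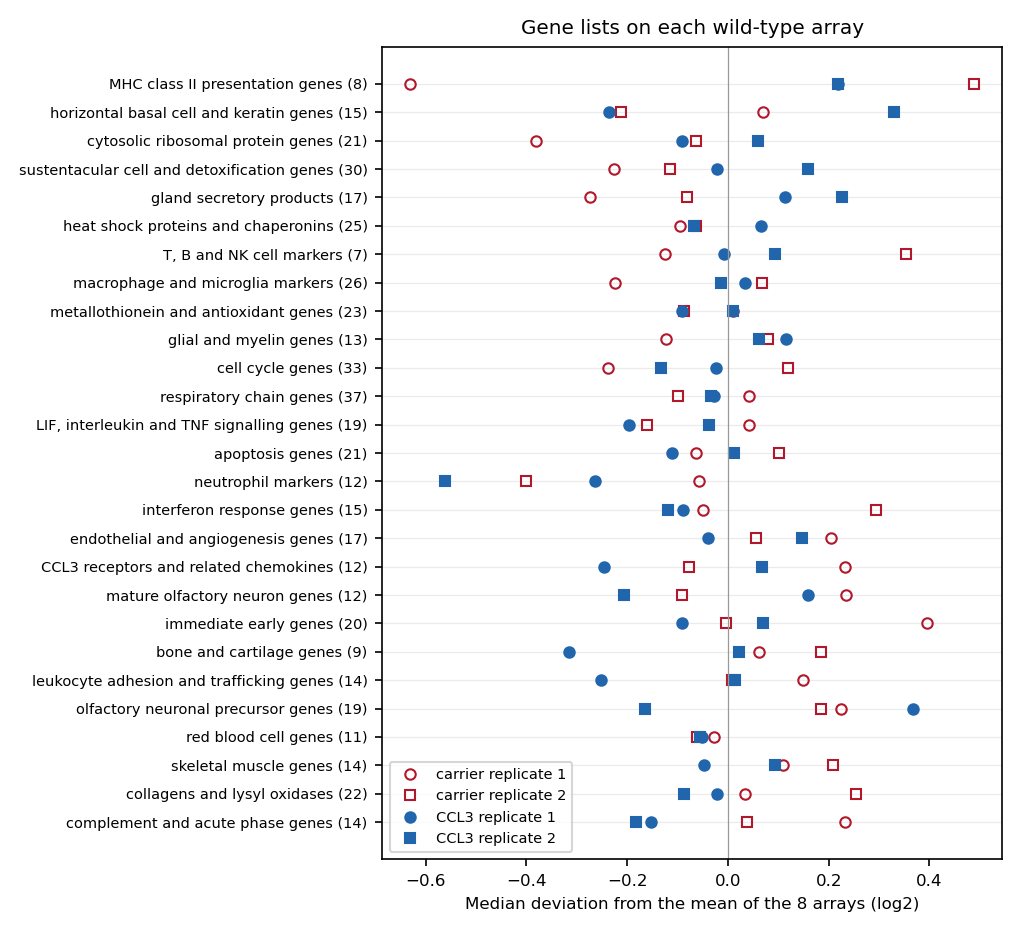
Median deviation of each gene list from the mean of all 8 arrays (log2), on the 4 wild-type arrays; open symbols are carrier replicates 1 (circle) and 2 (square), filled symbols the CCL3 replicates in the same shapes, the number of tested genes follows each name, and lists are ordered by their median difference. Carrier replicate 1 lies at the edge for many lists, at -0.63 for MHC class II genes. Both CCL3 arrays lie on one side of both carrier arrays for complement, gland, sustentacular, interferon, collagen, skeletal muscle and bone genes. The separation can be slight, as for skeletal muscle genes, with carrier replicate 1 at 0.109 and CCL3 replicate 2 at 0.094.

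Secretory products of the nasal glands held differences of several log2 units between the 2 carrier arrays. Of 17 tested 11 were higher after CCL3 (14 without carrier replicate 1), with a median of 0.15 and of 0.06 without that array. At an unadjusted p under 0.05, 4 were higher and 1 lower (all probe sets 1.98% and 2.32%), and 0 were higher and 1 lower when carrier replicate 1 was left out (all probe sets 2.70% and 3.29%). Lcn4, a lipocalin secreted by vomeronasal and septal glands, read 22.4 and 13198 after carrier and 21193 and 27719.5 after CCL3. It was almost dark on carrier replicate 1 and bright on the 3 other arrays, so the difference of 4.24 ± 1.81 was 0.87 without that array. Lcn3, a related lipocalin, read 92.4, 36365, 35429 and 41560.2, and Dmbt1, a secreted mucosal scavenger protein, read 324, 29481, 28745 and 46242, with carrier replicate 1 again the only dark array. Lcn3 and Dmbt1 were named after their values were seen. On the 4 arrays labelled Ccl3-/- the lowest values were 2124 for Lcn4, 11526 for Lcn3 and 5102 for Dmbt1.

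The further gland genes Pip, Muc5ac and Sftpd kept their direction without carrier replicate 1, with differences of 1.19, 0.79 and -1.03. Pip, the prolactin-induced protein of secretory glands, read 582, 842, 1245 and 3355 and was highest on CCL3 replicate 2 (1.42 ± 0.49, unadjusted p 0.0164). Muc5ac, a gel-forming mucin of goblet cells, read 169, 228, 520.3 and 419 (0.93 ± 0.40), higher on both CCL3 arrays. Sftpd, the collectin surfactant protein D, was lower on both, at 505, 693, 224 and 361 (-0.84 ± 0.35). The proline-rich protein gene Prp2 was read by 2 probe sets with opposite results. By one it read 1861 and 1964 after carrier and 548 and 506 after CCL3 (-1.68 ± 0.38), and by the other 2472, 1107, 4168 and 3805 (1.21 ± 0.68), so no direction can be given for it. Lcn2, a lipocalin that binds bacterial siderophores, was level by its bright probe set (33195, 34661, 34286 and 34786) and lower by a dim one (-1.25 ± 0.38).

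In the neuronal lineage most precursor genes were lower after CCL3, and mature neuron genes had no common direction. Of 19 precursor genes 12 were lower, and 16 were without carrier replicate 1 (medians -0.21 and -0.28). In 7 both CCL3 arrays lay below both carrier arrays (all probe sets 18.1%) and in 0 above (all probe sets 12.0%). None had an unadjusted p under 0.05 in limma (all probe sets 4.29%). Without CCL3 replicate 2 the median was 0.0130. The list's median deviation per array overlapped between the groups, with 0.23 and 0.18 on the carrier arrays and 0.37 and -0.16 on the CCL3 arrays. Neurod1, a transcription factor of late neuronal precursors, read 516 and 959.9 after carrier and 397 and 425 after CCL3 (-0.66 ± 0.35). Insm1, which promotes divisions that yield neurons, read 1360.1, 1935, 1296 and 847 (-0.58 ± 0.34). Hes6, expressed in differentiating precursors, read 3583, 3329, 2806 and 2283 (-0.43 ± 0.28). These 3 were lower on both CCL3 arrays. The bright gene Stmn1, a microtubule regulator of immature neurons, was low on carrier replicate 1 alone, at 8222, 25651, 25436 and 16395 (0.49 ± 0.45, and -0.33 without it). Of 12 mature neuron genes 7 were lower with both carrier arrays and 4 without carrier replicate 1 (medians -0.18 and 0.18), and the median without CCL3 replicate 2 was 0.0572. Omp was 0.86 ± 0.52 higher, a difference of 0.07 without that array. Cnga2, a subunit of the olfactory transduction channel, read 3208, 2599.6, 5123 and 3137, and S100a5, a calcium-binding protein of olfactory neurons, 31345, 8806, 29946 and 13015. Both overlapped between the groups, and S100a5 was high on replicate 1 of each.

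Basal cell, cell cycle and cell death genes had medians that changed sign with 1 array or with the scaling. Among horizontal basal cell and keratin genes 10 of 15 were higher (median 0.23, but -0.04 without carrier replicate 2 and -0.0834 without CCL3 replicate 2). Krt17, a keratin of stressed and basal epithelium, read 423, 359.6, 613 and 958, higher on both CCL3 arrays (0.82 ± 0.44 by the probe set brightest over the 8 arrays, and -0.24 ± 0.29 by another). Trp63, the p63 factor of basal stem cells, was -0.31 ± 0.26. Cell cycle genes split 18 higher to 15 lower, and 9 to 24 without carrier replicate 1 (medians 0.04 and -0.23). Tk1, the thymidine kinase of dividing cells, read 378, 1320.4, 1334 and 1423, with carrier replicate 1 the only low array. Pcna, the replication clamp, was level at 2791, 2825, 3366 and 2349.5. Of 21 apoptosis genes 11 were lower (17 without carrier replicate 1), with a median of -0.05 that was 0.0186 under cyclic loess. Casp9, the protease that starts the mitochondrial death pathway, read 917, 1315, 450.4 and 711 by its brightest probe set (-0.84 ± 0.30, unadjusted p 0.019), and another of its probe sets overlapped between the groups (0.10 ± 0.43).

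Stress genes had no common direction. Of 20 immediate early genes 13 were lower (median -0.19, and -0.07 without carrier replicate 1, which was high for this list). Egr1, a transcription factor induced within minutes of a stimulus, was higher on both CCL3 arrays, at 544, 530.2, 1316 and 967 (0.95 ± 0.28, unadjusted p 0.00647, adjusted p 0.911). Junb and Jund, members of the AP-1 family, were lower on both, at -0.83 ± 0.34 and -0.59 ± 0.30. Jund read 34410.4, 17643, 16405 and 16369, so its difference lay in carrier replicate 1 and was -0.11 without it. The difference of Junb was -0.44 without carrier replicate 1. Heat shock and chaperonin genes were higher in 17 of 25 (median 0.10). The mitochondrial chaperonin Hspd1 read 3508, 6216, 7373 and 7310.2 (0.64 ± 0.29, and -0.29 ± 0.34 by a second probe set). By the former probe set its difference was 0.24 without carrier replicate 1. Metallothionein and antioxidant genes had a median of 0.06, and the metal-binding genes Mt1 and Mt2 were level (-0.04 ± 0.24 and 0.12 ± 0.23). Genes of LIF, interleukin and TNF signalling had a median of -0.05 (0.0578 under cyclic loess). Socs1, a feedback inhibitor of cytokine receptors, had the smallest p of these (unadjusted p 0.202) and still overlapped between the groups, at 542, 568, 195 and 566 (-0.56 ± 0.41).

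Connective tissue genes were lower for the most part. Of 22 collagen and lysyl oxidase genes 16 were lower (median -0.28, -0.37 without carrier replicate 1 and -0.10 without carrier replicate 2), and 7 were lower on both CCL3 arrays (all probe sets 18.1%). Lox, which crosslinks collagen, read 969, 930.1, 425 and 451 (-0.96 ± 0.30, unadjusted p 0.0104), and its relative Loxl1 read 589.6, 859.7, 345 and 493 (-0.66 ± 0.32). Both were lower on both CCL3 arrays. Col1a1, the main collagen of bone and dermis, was highest on carrier replicate 2, at 8367, 16088, 8498 and 4881. Markers of bone and muscle were lower alongside these genes, and their part in the result was not tested. Bone and cartilage markers were lower in 7 of 9 (median -0.21), with summed intensities of 13955 and 11380 on the carrier arrays and 9236 and 12138 on the CCL3 arrays over the 13 on the array, and Alpl, the phosphatase of mineralising bone, read 1159, 1302, 748 and 898. Skeletal muscle genes were lower in 10 of 14 (median -0.24, summed intensities 17543 and 19830 on the carrier arrays and 15278 and 16860 on the CCL3 arrays). Actn3, an actin crosslinker of fast muscle fibres, read 469, 738, 53.4 and 221 (-1.63 ± 0.43, unadjusted p 0.00384).

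Vessel, glial and red cell genes were mixed. Endothelial genes were lower in 12 of 17 (median -0.12), but 9 were without carrier replicate 1. Glial and myelin genes had a median of 0.04, and none of the 13 had an unadjusted p under 0.05 in limma (all probe sets 4.29%). Red blood cell genes split 5 higher to 6 lower (median -0.23, and 0.28 with the stricter filter at the 60th percentile). Among the members with the smallest p and the brightest, Alas2, which starts haem synthesis in the erythroid lineage, read 803, 735, 1534 and 1089.5 (0.68 ± 0.26, unadjusted p 0.027), and Hbb-b2, a beta globin gene with near-identical copies that may add to its signal, read 10545, 7579, 13627 and 12220.3 (0.52 ± 0.25). Both were higher on both CCL3 arrays, whereas Rhd, a red cell surface protein, was lower on both CCL3 arrays at 288, 463, 59.5 and 189 (-1.11 ± 0.51). The brightest, the globin gene Hba-a1, overlapped between the groups at 46598, 26791, 42590 and 43494.5. Its difference was 0.28 ± 0.27, and 0.68 without carrier replicate 1. Respiratory chain genes had a median of -0.03 (0.0415 with the arrays scaled to one median) and cytosolic ribosomal protein genes one of 0.22, which was 0.06 without carrier replicate 1. Rpl41, a ribosomal protein among the brightest probe sets, was level at 77647, 88174, 80433 and 84841.

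The genes with the smallest p were mostly not members of the lists above. The smallest p of all belonged to a probe set with no single gene name. Among those higher after CCL3, Acy3, an aminoacylase that acts on conjugates of foreign compounds, read 151 and 385 after carrier and 930.0 and 1027 after CCL3 (1.62 ± 0.33). Rhou, a small GTPase, read 589, 584, 2150.4 and 2104 (1.69 ± 0.35, 3.24-fold). Slfn2, a Schlafen family gene of immune cells, read 147, 478, 1190.4 and 1170.5 (1.75 ± 0.39). In all 3 the CCL3 replicates lay close together and above both carrier arrays, a form that picking by p favours. B3galt2, a galactosyltransferase, read 102, 149.8, 450.5 and 701 (1.55 ± 0.35), and Echs1, an enzyme of mitochondrial fatty acid oxidation, 1511, 3226, 5589 and 6149 (1.36 ± 0.33). Defa35, a defensin gene whose family members can share signal, was at 1.70 ± 0.38. Pcx, the pyruvate carboxylase gene, read 249, 299.6, 794 and 846 (1.30 ± 0.28), Myt1l, a neuronal zinc finger factor, was at 1.39 ± 0.32 and Car4, a membrane-bound carbonic anhydrase, at 1.00 ± 0.25. Another probe set of each of these 3 genes had a difference below 0, in the same order -0.03 ± 0.38, -0.03 ± 0.29 and -0.41 ± 0.29. The other genes of this set were Lrrfip2, Ppie, Pmm1 and Ciao1, with differences between 0.97 and 1.47. The adjusted p of the genes with the smallest p on the higher side was 0.78 to 0.911 in limma.

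Among those lower after CCL3, Arhgef2, a microtubule-associated exchange factor for small GTPases, read 2434 and 1994 after carrier and 547 and 722 after CCL3. This gave the smallest p of a named gene (-1.66 ± 0.28, 3.15-fold, unadjusted p 0.000145, adjusted p 0.591 in limma). Spib, a transcription factor of B cells and related to PU.1, read 1074, 1308, 306 and 239 (-1.78 ± 0.38). Itgav, the alpha V integrin chain, read 405, 1029.8, 108 and 27.9 (-2.20 ± 0.49). Kat2a, a histone acetyltransferase, read 443, 1225, 168 and 192 (-1.59 ± 0.43), and Efnb3, an ephrin ligand of the nervous system, read 987, 1699.9, 528 and 435 (-1.27 ± 0.31). In all 5 both CCL3 arrays lay below both carrier arrays, which picking by p again favours. Clgn, a chaperone of the endoplasmic reticulum, was at -1.58 ± 0.39 by one probe set and at 0.09 ± 0.37 by another, and Cct5, a chaperonin subunit, at -0.97 ± 0.27 and 0.31 ± 0.28. Sart3 likewise had -1.05 ± 0.30 and 0.03 ± 0.31. The others were Hes2, Pofut2, Mid1ip1 and Slc6a18, with differences between -1.57 and -1.08.

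**Figure D4:**
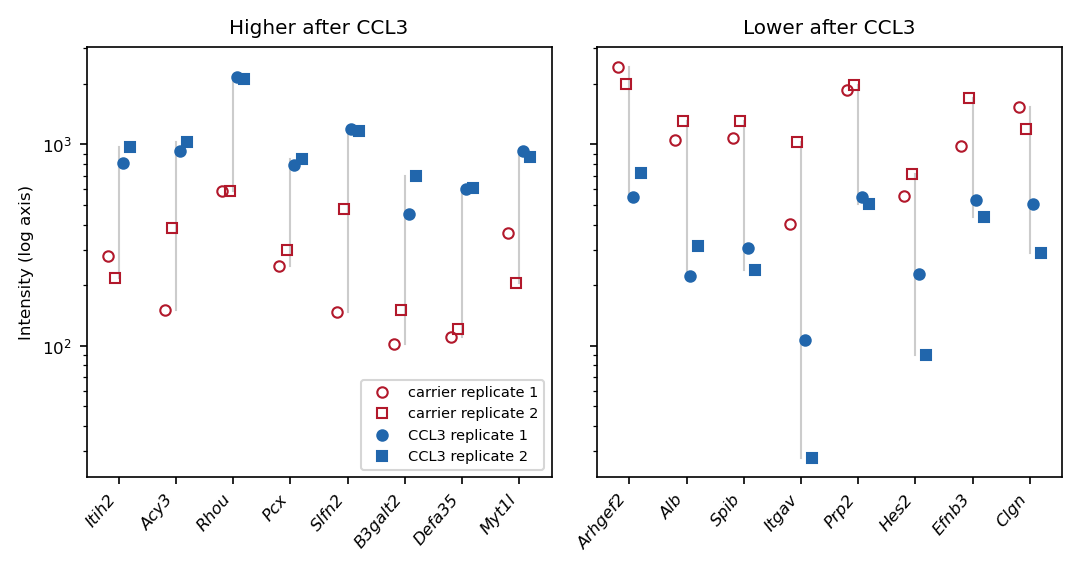
Intensity (log axis) on each of the 4 wild-type arrays for the 8 genes with the smallest p among those higher (left) and lower (right) after CCL3; open symbols are carrier arrays, filled symbols CCL3 arrays. In every gene shown both CCL3 arrays lie on one side of both carrier arrays; 345 of the 350 probe sets under an unadjusted p of 0.05 had this form.

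A wide gap between the groups was rare. In 14 probe sets (0.172%) both CCL3 arrays lay at least 1 log2 unit above both carrier arrays, and in 17 (0.209%) at least 1 below. Besides genes already named, those with the largest differences were Ppp2r5d, a regulatory subunit of a protein phosphatase, at 134, 138, 689 and 674 (1.72 ± 0.52), and Avpi1 at 131, 217, 543 and 1027 (1.65 ± 0.60). Lower were Ift46, a carrier of cargo into cilia, at 1625, 1281, 581 and 264 (-1.63 ± 0.64), and Gcdh, a mitochondrial dehydrogenase, at 586, 507, 126 and 135 (-1.48 ± 0.56). The carrier values of Ppp2r5d and Avpi1 lay under the filter value, as did both CCL3 values of Gcdh and the lower one of Ift46. Genes named above also had a whole group under it. These included Itih2, Defa35, B3galt2 and Pcx after carrier, and Alb, Spib, Itgav, Kat2a and Apoa1 after CCL3. Rhou, Echs1, Arhgef2 and Efnb3 were above it on every wild-type array.

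Without carrier replicate 1 other genes came first. Tbp, the TATA-binding protein, read 849.7 and 132 after carrier and 732 and 868 after CCL3, so its difference was 0.93 ± 0.52 with both carrier arrays and 1.94 against carrier replicate 2 alone. Fabp5, a fatty acid-binding protein of epithelia, read 1176, 283, 1520.1 and 1037 (0.95 ± 0.47 and 1.82). Ifnar2, a chain of the type I interferon receptor, read 1517, 261, 990.4 and 1194 (0.63 ± 0.54 and 1.71). For these 3 genes carrier replicate 2 was the low array and carrier replicate 1 lay near the CCL3 arrays, and Fam220a, Abcb8 and Pik3r2 had the same form, except by another probe set of Fam220a (-1.08 ± 0.58). On the lower side were Ephb6, a kinase-inactive ephrin receptor (-1.35, with another probe set at 0.79), and Lman2, a cargo receptor of the secretory pathway (-1.60, with another probe set at 0.19), both highest on carrier replicate 2 by the former. Itih2, Pmm1, Kat2a, Itgav, Efnb3, Arhgef2 and Alb were among the first genes with and without carrier replicate 1.

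The CCL3 difference in the wild type was set against the one on the arrays labelled Ccl3-/-, which rest on separate arrays. No probe set passed for the difference between genotypes (lowest adjusted p 0.908 in limma), and 412 (5.06%) had an unadjusted p under 0.05. Both CCL3 arrays lay apart from both carrier arrays under each label in the same direction for 5.39% of probe sets and in opposite directions for 6.77%. The genes given next were named by their p in the wild type. Their wild-type difference enters the difference of differences, so the choice favours a large one. Pip was 1.42 ± 0.49 in the wild type and -2.01 on the arrays labelled Ccl3-/- (difference of differences 3.43 ± 0.70). Itih2 was 1.51 ± 0.28 and -0.61 (2.12 ± 0.39), and Slfn2 was 1.75 ± 0.39 and -0.53 (2.29 ± 0.56). The mean of each of these was higher after CCL3 in the wild type and lower after CCL3 on the arrays labelled Ccl3-/-. Alb went the other way, at -1.79 ± 0.34 and 0.64 (-2.43 ± 0.48), as did Kat2a at -1.59 ± 0.43 and 1.45 (-3.04 ± 0.61). Neurod1 was -0.66 ± 0.35 and 0.98 (-1.64 ± 0.50). Other named genes had the same direction under both labels. Among them were Lox at -0.96 ± 0.30 and -1.88, Rhou at 1.69 ± 0.35 and 0.50, and Alas2 at 0.68 ± 0.26 and 1.02. The precursor list had medians of -0.21 in the wild type and 0.37 on the arrays labelled Ccl3-/-. Red blood cell genes had medians of -0.23 and 0.91, and horizontal basal cell genes 0.23 and -0.47. The wild-type median of each changed sign with the settings. It was 0.28 for red blood cell genes with the filter at the 60th percentile, and -0.04 for horizontal basal cell genes without carrier replicate 2. Complement and acute phase genes, at -0.37 and -0.48, and adhesion genes, at -0.21 and -0.55, were lower in both. The difference between these list medians was not tested.

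**Figure D5:**
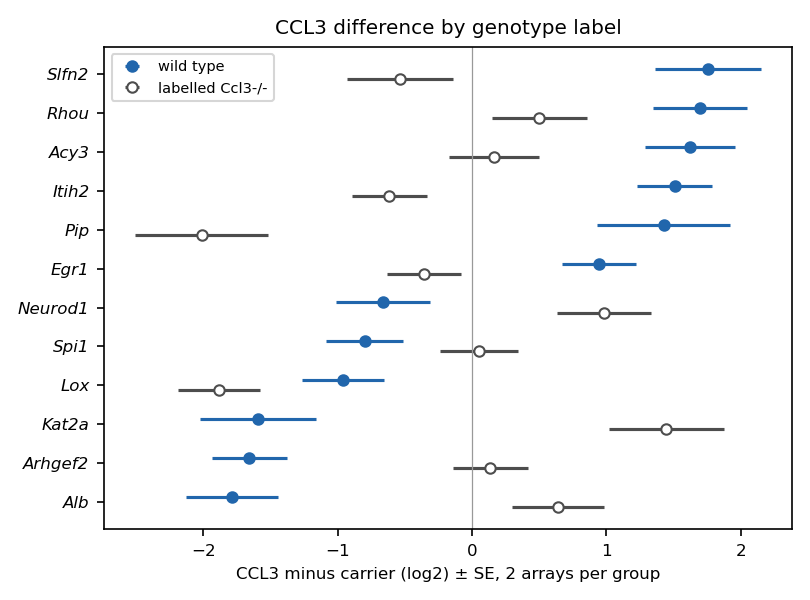
CCL3 minus carrier (log2, ± SE) in the wild type (filled circles) and on the arrays labelled Ccl3-/- (open circles) for named genes, with 2 arrays per group. Pip, Itih2 and Slfn2 lie above 0 in the wild type and below 0 on the other arrays, and Alb and Kat2a the reverse. Rhou lies above 0 and Lox below 0 under both labels. The genes were named by their p in the wild type, and none passed the adjusted threshold.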

How the data were processed

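The values came from the deposited series matrix, which holds 1 linear intensity per probe set and array. The scanner software and genome build were not stated in what was used here. The deposited intensities had been scaled, since means trimmed of 2% at each end differed by at most 0.00434% between arrays. Here 66 control probe sets were left out. Probe sets above the 40th percentile (362.7) on at least 2 arrays were kept, and log2(intensity + 102.3), with the 20th percentile as pseudocount, was fitted with limma 3.58.1 in R 4.3.3 (lmFit, eBayes with an intensity trend) over all 8 arrays in 4 groups, with Benjamini-Hochberg adjustment over all probe sets tested. The script was tested on simulated data. Genes came from the platform annotation (10855 probe sets with 1 symbol, 396 with several genes and 1237 with none) and were checked against the RefSeq gene table. Each gene of a list was read by its brightest probe set. The 2 arrays per group limit the precision. The compared arrays, the 27 lists and the named-gene rule were chosen with earlier results of these data known. The rule names the 15 smallest p values in each direction (8 without carrier replicate 1), the 4 smallest p values and 2 brightest genes of each list, a few chemokine, macrophage and control genes, and the 10 largest differences in each direction among groups at least 1 log2 unit apart. From these, a selection is given. Other normalizations, pseudocounts, filters, fits and left-out arrays were tried.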

Additional observations from a re-analysis of the deposited data

Results flagged for a closer look

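The median deviation of the skeletal muscle list was lower on both CCL3 arrays in the wild type and higher on both on the arrays labelled Ccl3-/-. The separations were very small. In the wild type it was 0.109 and 0.208 after carrier and -0.047 and 0.094 after CCL3. On the arrays labelled Ccl3-/- it was -0.167 and -0.086 after carrier and 0.085 and -0.081 after CCL3. Of the 24 genes on the array 14 were tested. The median difference was -0.24 in the wild type and 0.10 on the arrays labelled Ccl3-/-. The difference between the genotypes was not tested for the list.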

How the results depend on the processing

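In the wild type no probe set came under an adjusted p of 0.05 (limma) with any alternative, nor at 0.1, except when 1 array was left out: the count was 0 to 73, and the 73 came without carrier replicate 2. The interaction count was 0 throughout. The counts at an unadjusted p under 0.05, 161 higher and 189 lower, depended more on the settings. Scaling the arrays to one median, which moved the median of all differences to 0.0494, gave 265 higher. The filter at the 60th percentile, which tests fewer probe sets, gave 106 higher and 71 lower, and no filter gave 517 lower. A fit of only the 4 wild-type arrays gave 101 and 119, and array weights gave 89 lower. The 2 arrays of a group received the same weight, 0.487 for both wild-type carrier arrays, so the weights could not set carrier replicate 1 apart. Leaving out 1 array gave 102 to 850 higher and 117 to 542 lower. With the replicate number as a block (replicate block) 0 probe sets passed, with 198 higher and 170 lower at an unadjusted p under 0.05; deviations of same-numbered wild-type arrays correlated at only 0.089, so the arrays share a number and nothing shows pairing. Of 124 probe sets named, 7 changed sign under another normalization. Where a gene was read by several probe sets, the main difference of the one meant is given in parentheses. Under one median the difference was 0.00697 for Gstm5, 0.0314 for Mt1, 0.0325 for Myt1l (the probe set at -0.03), 0.0314 for Pcx (the probe set at -0.03) and 0.0698 for Rpl41. Under quantile normalization the difference was -0.0519 for Lcn2 (the probe set at 0.03), 0.00965 for Myt1l (the probe set at -0.03), -0.0277 for Pcna, 0.0505 for Pcx (the probe set at -0.03) and 0.0848 for Rpl41. Under cyclic loess the difference was -0.0312 for Lcn2 (the probe set at 0.03), 0.0215 for Myt1l (the probe set at -0.03), -0.00363 for Pcna and 0.0927 for Pcx (the probe set at -0.03). Leaving out 1 array changed the sign of 32, with these lowest and highest differences: Abcb8 -0.34 to 1.54, Adgre1 -0.55 to 0.67, C1qa -0.33 to 1.12, C1qb -0.21 to 1.46, Casp9 (the probe set at 0.10) -0.61 to 0.80, Ccl3 -0.12 to 0.61, Ccl9 -0.38 to 1.18, Cct5 (the probe set at 0.31) -0.0272 to 0.64, Cd74 -0.32 to 1.17, Cd79a -0.87 to 0.13. The same range was Clgn (the probe set at 0.09) -0.34 to 0.52, Csf1r (the probe set at 0.12) -0.00677 to 0.25, Fam220a (the probe set at 0.64) -0.50 to 1.79, Gstm5 -0.25 to 0.12, H2-Aa -0.44 to 1.54, Ifnar2 -0.44 to 1.71, Lcn2 (the probe set at 0.03) -0.00525 to 0.0569, Lman2 (the probe set at -0.21) -0.62 to 0.19, Mt1 -0.29 to 0.21, Mt2 -0.0334 to 0.27. It was Myt1l (the probe set at -0.03) -0.25 to 0.18, Pcna -0.25 to 0.25, Pcx (the probe set at -0.03) -0.39 to 0.33, Pik3r2 -0.76 to 1.62, Rpl41 -0.0940 to 0.0892, S100a5 -0.66 to 1.16, S100a8 -1.55 to 0.63, S100a9 -0.80 to 2.00, Sart3 (the probe set at 0.03) -0.41 to 0.47, Socs1 -1.14 to 0.0242, Stmn1 -0.33 to 1.30 and Tbp -0.0818 to 1.94 for the rest. List medians changed sign in 15 of 27 lists when 1 array was left out and in 7 under other alternatives. Where the fit itself does not show the cause, the cause was not tested. Intensities near the filter value limit what can be seen in dim genes.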
